A study of Rattus norvegicus with 13 samples.

Results

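The left ventricles of the 5 untreated control rats were described on their own, out of the 13 arrays of the series, and the arrays were chosen by their label as control heart. All rats were female Sprague Dawley rats of 200 to 250 g at purchase, kept on standard chow, and all were pregnant, the controls included. Day 1 was the day a mucus plug was found, and hearts were taken on day 20 or 21 under sodium pentobarbital. Control rats drank plain water, 4 Met-fed rats drank L-methionine at 9 g/L and 4 L-NAME-fed rats drank the nitric oxide synthase inhibitor L-NAME at 1 g/L, from day 1 to day 20. The study's methods describe repeated pregnancies, which the labels do not state. Labels give no age and no hour of death, and each replicate is 1 labelled sample that nothing in the labels ties to a separate animal in words, so the spread reported here is the spread between these samples. Of the measured genes, 14217 could be read through a probe set annotated to 1 symbol alone, and each was read by its brightest probe set.

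The ventricular wall is built mostly, by mass, from cardiomyocytes, which contract through the sarcomere and renew their ATP almost without pause in mitochondria, largely from fatty acids. Endothelial cells, fibroblasts, macrophages, mural cells and blood share the tissue. In late pregnancy the maternal heart carries a larger blood volume and output, and circulating fatty acids and placental hormones are raised. Many muscle proteins are encoded by small families of related genes, called paralogs, of which the heart uses particular members.

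Signals were MAS5 intensities scaled to a common trimmed mean, and they are given on the log2 scale. A signal depends on the affinity of a probe set as well as on its transcript, so an order between genes is an order of signal, not of transcript number, and saturation of the brightest probe sets cannot be checked from these values. The array medians ran from 25.7 to 27.2 in the controls. Any 2 control arrays correlated at r between 0.967 and 0.978 across the 7109 genes of at least the median gene's signal (6.47), and the median absolute difference between such a pair was 0.142 to 0.181 on the log2 scale. These correlations are across genes, which are not independent replicates. No control array stood apart from the others on these measures. In a whole piece of tissue, fewer cells of a type and less RNA per cell cannot be told apart.

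Markers of cardiomyocytes and of ventricle were checked against the label, but none of them separates left from right ventricle. Of 5 measured cardiomyocyte markers, 4 were among the 50 brightest genes, namely Myh6, Tnnt2, Myl2 and Tnni3, and the fifth, the ryanodine receptor Ryr2, read 11.38 ± 0.066. Myl2, the ventricular regulatory light chain, read 11.94 ± 0.068. Its atrial counterpart Myl7 read 8.94 ± 0.55, on a probe set of its own affinity. The ventricular transcription factors Irx4 and Hey2 read 8.69 ± 0.31 and 7.42 ± 0.24. All 7 measured endothelial markers, all 7 fibroblast markers and all 8 macrophage markers were at or above the median gene, with Pecam1 at 10.70 ± 0.056, Dcn at 11.38 ± 0.13 and Mrc1 at 10.49 ± 0.16. Of 6 measured lymphocyte markers only the pan-leukocyte gene Ptprc reached the median gene, and the T cell genes Cd3e and Cd4 read 4.52 ± 0.58 and 2.67 ± 0.17. Npy, a neuropeptide of sympathetic nerves, read 10.20 ± 0.48, whereas Dbh, the enzyme of noradrenaline synthesis, read 4.98 ± 0.28. Npy was the only 1 of 5 measured neuron and Schwann cell markers to reach the median gene, and which cells gave its signal was not tested.

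The brightest part of the profile was mitochondrial and contractile. The mitochondrial gene COX1, a catalytic subunit of cytochrome oxidase, ranked first at 12.25 ± 0.19 and Myh6, the fast cardiac myosin heavy chain, ranked second at 12.23 ± 0.067. The 50 brightest genes lay between 11.73 and 12.25 and carried 4.53 ± 0.15% (SD, n = 5) of the summed signal of all genes. Their median SD across the 5 hearts was only 0.072. Of these 50 genes, 39 belonged to one of the functional lists, and of the 100 brightest 76 did. Since rank 50 (Ctnnb1) and rank 51 (Chchd10) differed by less than 0.001 in mean signal, which is far below the spread between hearts, the edge of the list is arbitrary.

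**Figure D1:**
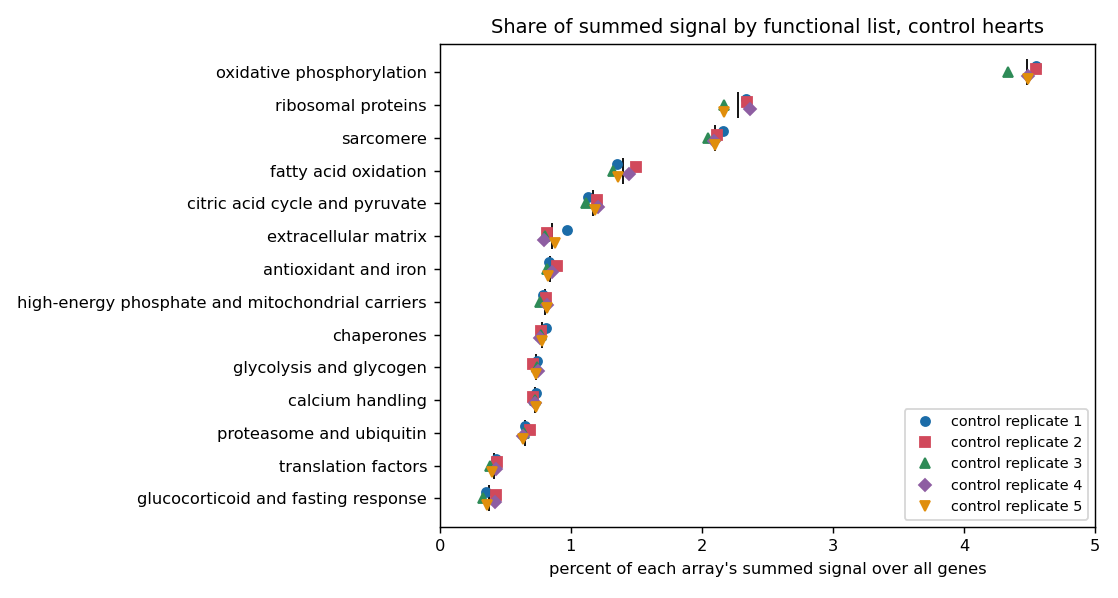
Share of the summed signal over all 14217 genes, in percent (horizontal axis), held by 14 functional lists (vertical axis) in each of the 5 control arrays (symbols), with the mean as a vertical bar. Oxidative phosphorylation held 4.34 to 4.55% in every heart, clear of ribosomal proteins at 2.16 to 2.36% and of the sarcomere at 2.05 to 2.16%.

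Oxidative phosphorylation held the largest share of the lists examined, at 4.48 ± 0.086% of the summed signal for 73 genes. It had 10 genes among the 50 brightest and 28 among the 100 brightest. The list leaves out COX1, COX2, Atp5mk and Atp5mpl, and with these 4 the respiratory chain and ATP synthase had 14 of the 50. Every one of its 73 measured genes was at or above the median gene. Among ATP synthase subunits, Atp5mc3 of the membrane ring read 12.12 ± 0.075, and Atp5mk, a small membrane subunit, read 12.11 ± 0.072. Of complex IV, Cox6c read 12.05 ± 0.07 and Cox5a read 11.98 ± 0.092. Ndufb5, an accessory subunit of complex I, read 11.97, 12.00, 11.89, 12.05 and 12.07 in replicates 1 to 5. Those 5 values span less than 0.2, and no heart departs from the rest.

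The sarcomere list, 48 measured genes, held 2.10 ± 0.040% and also placed 10 genes among the 50 brightest. Behind Myh6 came the tropomyosins Tpm3 and Tpm1, which lie along actin, at 12.06 ± 0.099 and 11.99 ± 0.069. The brightest of 11 other Tpm3 probe sets read 10.67, so the place of Tpm3 rested on 1 probe set. For Tpm1 the brightest of 6 others read 11.98. Troponin T (Tnnt2) read 11.99 ± 0.10 and troponin I (Tnni3), the inhibitory subunit, read 11.79 ± 0.079. The essential light chain Myl3 read 11.84 ± 0.088. Myosin-binding protein C (Mybpc3) and the Z-disc anchor Actn2 were dimmer, at 11.69 ± 0.054 and 11.33 ± 0.059. Myoglobin (Mb), the oxygen store of muscle, read 12.12, 12.13, 11.98, 12.14 and 12.14, with replicate 3 below the other 4 hearts, which lay within 0.03 of each other. The mean of all 50 brightest genes was also lowest in replicate 3, at 11.81, with 11.92 to 11.95 in the other hearts.

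Fatty acid oxidation held 1.40 ± 0.073% for 31 genes and the citric acid cycle with pyruvate metabolism held 1.17 ± 0.041% for 24 genes. Fabp3, which carries fatty acids through the cytosol, read 12.02 ± 0.079 and ranked 10. Lpl, the lipase that releases fatty acids from circulating lipoproteins, read 11.81 ± 0.059. Idh2, the mitochondrial NADP-dependent isocitrate dehydrogenase, read 11.93 ± 0.078 and Mdh1, the cytosolic malate dehydrogenase, read 11.86 ± 0.039. The ketone-using enzyme Oxct1 was at 11.76 ± 0.069. Glycolysis and glycogen, with 28 measured genes, held 0.737 ± 0.015% and had 1 gene among the 50 brightest, Ldhb, at 11.76 ± 0.03.

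Energy transfer and calcium cycling had fewer genes but bright ones. Of 20 measured genes for high-energy phosphate and mitochondrial carriers 5 were among the 50 brightest, including the phosphate carrier Slc25a3 (11.88 ± 0.047) and the adenine nucleotide carrier Slc25a4 (11.78 ± 0.094). In the calcium list, Atp2a2, the calcium pump of the sarcoplasmic reticulum, read 11.98 ± 0.067 and its inhibitor phospholamban (Pln) read 11.86 ± 0.068. Next in that list came Casq2, the store's calcium buffer, at 11.49 ± 0.11 and Ryr2, its release channel. The whole calcium list kept a share of 0.714 to 0.733% in the 5 hearts. None of 26 measured genes for ion channels and pumps was among the 100 brightest, and the brightest of them, Fxyd1, the phospholemman that regulates the sodium pump, read 11.07 ± 0.082.

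Ribosomal proteins held 2.28 ± 0.10%, and this covers only the 43 of 80 listed genes that were measured through a single-symbol probe set. Rps29, of the small subunit, read 12.13 ± 0.098 and ranked 3, and Rps23 read 11.96 ± 0.072. Genes with other roles also reached this range. Beta-2-microglobulin (B2m), the light chain of class I antigens, read 11.97 ± 0.07, matrix Gla protein (Mgp), an inhibitor of calcification, read 11.82 ± 0.062, and the hemoglobin gene Hbb, of red blood cells, read 11.80 ± 0.15. Gja1, connexin 43 of the gap junction, was at 11.87 ± 0.094. Gosr1, a Golgi SNARE, ranked 9 at 12.05 ± 0.082, but its other 2 probe sets read 8.18 and 5.76, so its rank rested on 1 probe set. Of the 50 brightest genes 16 had a further probe set, which was over 2 log2 units dimmer for 7 of them.

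Promoters are printed for 4 genes, a bright heart isoform of complex IV (Cox6a2), bright troponin I and a pair of clock genes described further on, to show the letters that were searched. Each is the RefSeq window of GRCr8 from 250 bases before to 50 after the start of the gene, read 5′ to 3′ on the strand of the gene, and capitals mark a match.
Cox6a2, chr1:192219667-192219966, minus strand: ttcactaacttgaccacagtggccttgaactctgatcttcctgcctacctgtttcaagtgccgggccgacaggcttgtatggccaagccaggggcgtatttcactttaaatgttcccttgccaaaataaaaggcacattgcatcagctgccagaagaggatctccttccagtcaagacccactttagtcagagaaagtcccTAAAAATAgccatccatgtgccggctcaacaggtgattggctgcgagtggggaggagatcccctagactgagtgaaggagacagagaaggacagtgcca
Tnni3, chr1:78342321-78342620, plus strand: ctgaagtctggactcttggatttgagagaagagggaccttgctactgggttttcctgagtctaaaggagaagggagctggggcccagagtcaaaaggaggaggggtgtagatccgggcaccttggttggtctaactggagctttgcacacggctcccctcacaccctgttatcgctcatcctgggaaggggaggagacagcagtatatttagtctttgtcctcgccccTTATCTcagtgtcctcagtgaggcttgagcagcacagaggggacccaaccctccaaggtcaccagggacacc
Per2, chr9:99496944-99497243, minus strand: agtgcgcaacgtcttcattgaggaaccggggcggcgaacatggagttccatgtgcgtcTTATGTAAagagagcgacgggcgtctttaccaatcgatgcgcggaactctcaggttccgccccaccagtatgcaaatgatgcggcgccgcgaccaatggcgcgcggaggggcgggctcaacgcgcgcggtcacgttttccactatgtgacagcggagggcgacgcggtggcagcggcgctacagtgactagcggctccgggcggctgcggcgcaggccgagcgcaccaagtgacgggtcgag
Bhlhe41, chr4:180569306-180569605, minus strand: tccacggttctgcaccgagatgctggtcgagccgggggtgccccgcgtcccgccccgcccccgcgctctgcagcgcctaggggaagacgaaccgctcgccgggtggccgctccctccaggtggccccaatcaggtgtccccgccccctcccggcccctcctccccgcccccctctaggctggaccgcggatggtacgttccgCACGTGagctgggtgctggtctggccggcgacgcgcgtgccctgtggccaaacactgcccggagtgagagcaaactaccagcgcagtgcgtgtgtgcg

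Capitals in Cox6a2 mark the MEF2 core (searched as TATTTTTA on both strands), which 2.69% of all 33469 RefSeq promoter windows hold. Of 66 oxidative phosphorylation genes with a window, 1 held it. List counts are of genes with a match in any of their windows, and some genes have several. They are therefore not in the same unit as the share of all windows. In Tnni3 they mark the GATA site (AGATAA on both strands), held by 11.6% of all windows and by 8 of 38 sarcomere genes. Per2 has a D-box (TTATGTAA on both strands, 0.893% of all windows), and it was the only one of 15 clock genes with a window to hold one. Bhlhe41 has an E-box (CACGTG on both strands, 6.42% of all windows), which Bhlhe40, Nr1d1 and Tef also hold, 4 of 15 in all. These are matches of letters in a short window and were not tied to any binding.

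Paralog use was uneven in most families. Of 58 families listed, 55 had at least 2 measured members, and in 47 of these the same member was brightest in all 5 control hearts. The brightest member led the next by over 1 log2 unit in 35 families and by over 3 in 20, and the median lead was 1.87. In 11 of those 20 the next member lay below the median gene. In 45 families the same member also led in all 13 arrays of the series.

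The troponin families and mitochondrial creatine kinase had 1 bright member and others below the median gene, where the size of a lead is not well measured. Mitochondrial creatine kinase of striated muscle, Ckmt2, read 11.59 ± 0.078 while the ubiquitous form Ckmt1 read 0.74 ± 1.81. Cardiac troponin C (Tnnc1) was at 11.62 ± 0.075 and its fast skeletal counterpart Tnnc2 at 1.81 ± 1.64. For troponin I, Tnni2, the fast skeletal form, read 4.24 ± 0.27, and for troponin T, Tnnt3 read 5.14 ± 0.24. Tnni1, the slow skeletal form that the fetal heart uses, read 3.57 ± 0.99, far below the median gene. Next members were brighter in the calcium store, where Casq2 led Casq1 by 4.72 ± 0.87, Ryr2 led Ryr3 by 4.87 ± 0.22 and Atp2a2 led Atp2a3 by 3.91 ± 0.073.

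**Figure D2:**
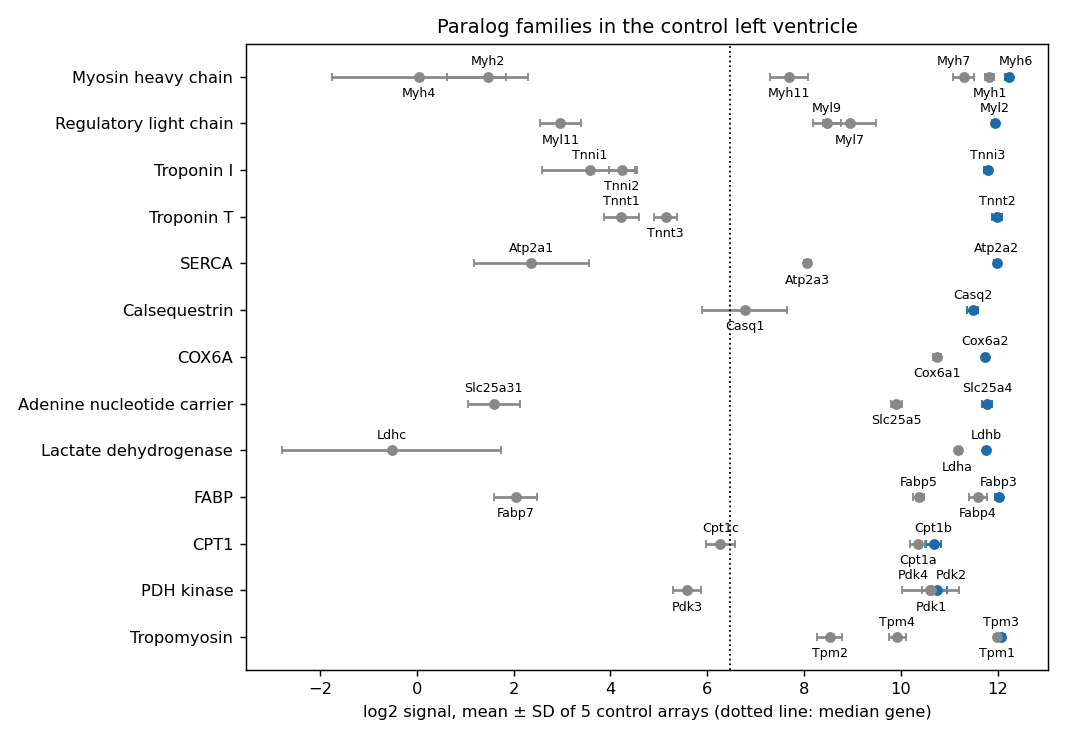
Log2 signal (horizontal axis, mean ± SD of the 5 control arrays) of the members of 13 paralog families (vertical axis), with the brightest member in blue and the others in grey; the dotted line is the median gene. Troponin, SERCA and calsequestrin families have 1 member near 12 and the rest far lower, whereas tropomyosins, PDH kinases, CPT1 and lactate dehydrogenases have a close second.

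Several families of mitochondrial and metabolic enzymes had a close second member. Many of these members were near the top of the scale, where saturation cannot be checked, so the size of a small lead is not well measured either. The muscle form Cox6a2 led the ubiquitous Cox6a1 by 1.00 ± 0.10, and Cox8b led Cox8a by 0.84 ± 0.088. Ldhb, the heart form of lactate dehydrogenase, led Ldha, the muscle form, by 0.59 ± 0.065. Slc25a4 led Slc25a5 by 1.87 ± 0.039, a lead that was nearly the same in each heart. Cpt1b, the muscle gatekeeper of mitochondrial fatty acid entry, read 10.69, 10.89, 10.48, 10.64 and 10.67 and Cpt1a, the liver form, 10.17, 10.53, 10.22, 10.47 and 10.34. Cpt1b was above Cpt1a in every heart, by 0.33 ± 0.13. Among fatty acid binding proteins, Fabp4, of endothelium and fat cells, followed Fabp3 at 11.60 ± 0.19. For regulators of fuel use, Ppard led Pparg by 2.75 ± 0.29, with Ppara at 3.89 ± 0.58, and Esrrg led Esrra by 2.24 ± 0.27. With all probe sets of a gene averaged, Pparg and not Ppard was the brightest of its family.

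In 8 families the brightest member was not the same in all 5 hearts. The pyruvate dehydrogenase kinases, which hold glucose oxidation back, had no leader. Pdk2 read 10.43, 10.69, 10.81, 10.91 and 10.92, Pdk1 10.49, 10.76, 10.39, 10.84 and 10.64 and Pdk4 10.24, 11.18, 9.87, 11.19 and 10.57. Pdk4 was brightest in replicates 2 and 4, Pdk2 in replicates 3 and 5, and Pdk1 in replicate 1. Tpm3 and Tpm1 differed by 0.072 ± 0.078, Vdac3 and Vdac1, the outer membrane channels, by 0.015 ± 0.047, Pgam2 and Pgam1 by 0.12 ± 0.25, Timp2 and Timp3 by 0.090 ± 0.22, and Acta1 and Actg1 by 0.10 ± 0.14. Each of these differences was smaller than its own SD. The cardiac actin gene Actc1 was not analysed here. Nppb led Nppa in 4 of 5 hearts, and Adrb1 and Adrb3 were both near the floor.

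Myosin heavy chains need a caution. Myh6 read 12.23 ± 0.067 and Myh7, the slow beta chain, 11.29 ± 0.21, with 11.00, 11.43, 11.22, 11.28 and 11.55 in replicates 1 to 5. Between them came Myh1, named for a fast skeletal chain, at 11.83 ± 0.091, and all 5 of its probe sets read 11.46 to 11.83. The other fast skeletal chains Myh2 and Myh4 were near the floor, at 1.47 ± 0.84 and 0.05 ± 1.79. Of the 10 measured skeletal muscle markers only Myh1 and Acta1 reached the median gene. The sequences of these probes were not used here, so what the Myh1 probe sets bind was not tested. With all probe sets of a gene averaged, Myh1 and not Myh6 was the brightest of this family. Of the nitric oxide synthases, Nos3 was brightest at 4.05 ± 0.19, also below the median gene.

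The lead of the brightest over the next member was compared with the treated groups by an exact permutation test (2-sided) over 110 family and group pairs. No family passed the adjusted threshold in Met-fed hearts, where 4 of 55 had an unadjusted p under 0.05 and the smallest adjusted p was 0.0873. In L-NAME-fed hearts 21 of 55 passed, all at the smallest p that 5 against 4 samples allow, 0.00794 (exact permutation), or 0.0416 adjusted. By limma, a different test given further on, 45.7% of all probe sets passed in those hearts. The brightest and next members were chosen by their means over the same control arrays, which favours smaller leads in treated groups. The part of this choice was not tested. The lead of Atp2a2 over Atp2a3 was 3.91 ± 0.073 in controls and 2.23 ± 0.11 in L-NAME-fed hearts, that of Slc25a4 over Slc25a5 was 1.87 ± 0.039 and 0.72 ± 0.053, and that of Prkaa1 over Prkaa2, catalytic subunits of AMP-activated kinase, turned from 1.81 ± 0.58 to -0.67 ± 0.11. The lead was larger in L-NAME-fed hearts for Cpt1b over Cpt1a (0.33 ± 0.13 and 1.88 ± 0.16) and for Gja1 over Gja4. The 50 genes chosen as brightest in controls were dimmer on those arrays, with a mean of 11.81 to 11.95 in controls and 11.18 to 11.39 in L-NAME-fed hearts. The log2 ratio of the 3′ to the 5′ actin control probe sets was 3.31 to 3.67 in controls and 2.32 to 2.70 in L-NAME-fed hearts. The part of either in these leads was not tested. An adjusted p under 0.05 needed at least 18 of the 110 pairs at that smallest p, so the families passed or missed as a block. With all probe sets of a gene averaged, Prkaa2 led Prkaa1 and Gja4 led Gja1 already in the control hearts. Under that setting 14 L-NAME-fed families were at the smallest p and none passed. Without any 1 sample none passed either, but the smallest p then becomes 0.0286 or 0.0179 (exact permutation), which 63 or 40 pairs would have to reach, so those fits could say little.

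Spread between the hearts was small for most genes. Among the 7109 genes of at least median signal the median SD was 0.158, 1626 genes (22.9%) were under 0.1 and 153 (2.15%) were over 0.5. SD was larger in dimmer genes, with a Spearman correlation of -0.48 between SD and mean across these genes, given as a description. By function, 10% of these genes are in the top 10% by construction, with an SD of at least 0.321. Oxidative phosphorylation had 1 of 73 genes there, and ribosomal proteins (40) and the proteasome (26) had none. Sarcomere genes had 6 of 45. In contrast, 9 of 18 genes of the glucocorticoid and fasting response, 8 of 17 interferon response genes, 5 of 11 clock genes, 5 of 9 cytokine and acute phase genes and 9 of 38 matrix genes were there. Over all measured members, the median signal of these lists was 9.13, 7.73, 7.28, 5.96 and 9.23 in that order. For oxidative phosphorylation it was 11.43, for ribosomal proteins 11.28, for the sarcomere 10.65 and for the proteasome 9.86. The 10% is therefore no background of like signal, and the lists were chosen with earlier results of these data known.

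**Figure D3:**
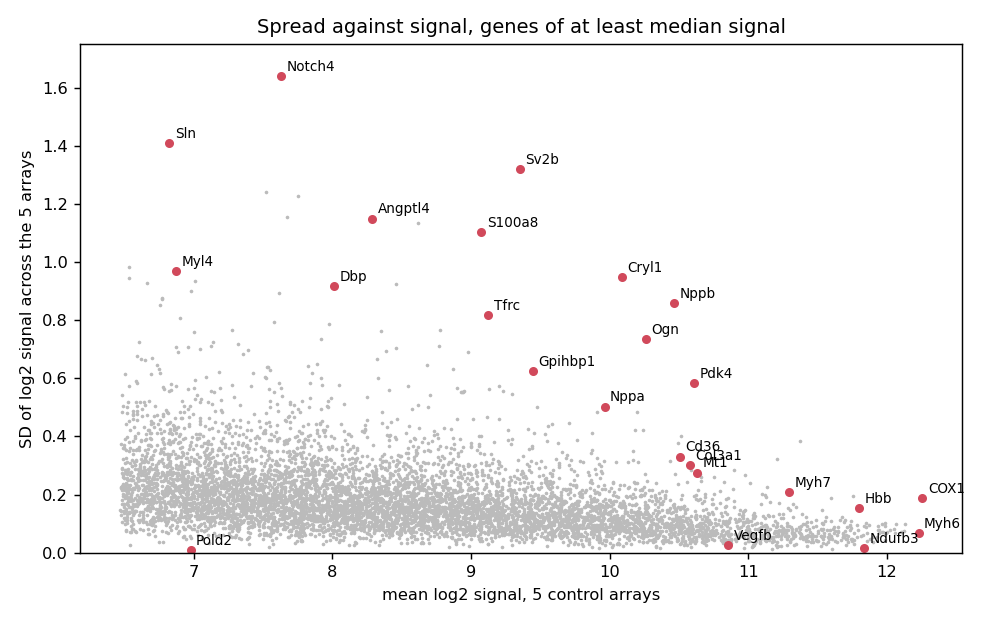
SD of log2 signal across the 5 control arrays (vertical axis) against mean log2 signal (horizontal axis) for the 7109 genes of at least median signal (grey), with named genes in red. Notch4, Sln and Sv2b have the largest SDs, 1.64, 1.41 and 1.32, and Cryl1, Nppb and Ogn have the largest SDs among those with a mean over 10.

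Bright and variable genes were rare in these signals, where saturation of bright probe sets cannot be checked. Of the 500 brightest genes only 3 (0.6%) were in the top 10% by SD, and these were singled out after their values were seen. Tcap, the titin cap of the Z-disc, read 11.47, 11.76, 11.41, 11.48 and 10.73, with replicate 5 lowest. Penk, the precursor of enkephalin peptides, read 10.70, 11.45, 11.30, 11.09 and 11.49, lowest in replicate 1. Tax1bp1, an autophagy receptor, read 10.54, 10.82, 10.54, 11.28 and 10.51, with replicate 4 highest.

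Of 17 measured clock genes, 10 were above their own mean in both replicates 2 and 3, 5 were below it in both, and 2 were neither, a split drawn after the values were seen. The clock is a loop in which BMAL1 with CLOCK or NPAS2 drives Per, Cry and Nr1d genes, which then repress it, and output factors such as Dbp and Nfil3 act in opposite phases. Dbp, the PAR-type activator, read 7.79, 9.13, 8.79, 7.32 and 7.02. Replicates 2 and 3 were highest and replicate 5 lowest, 4.31-fold below replicate 2. Bhlhe41, a repressor, read 7.36, 8.10, 8.30, 7.02 and 6.89, again with replicates 2 and 3 on top and replicate 5 at the bottom. Per2 read 6.44, 7.64, 6.69, 6.54 and 5.79 and Nr1d1, a heme-sensing repressor, read 8.90, 9.30, 9.12, 8.69 and 8.56, each highest in replicate 2 and lowest in replicate 5.

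The 5 genes below their mean in replicates 2 and 3 were Nfil3, Npas2, Bmal1, Cry1 and Clock. Nfil3, which competes with Dbp for the D-box, read 7.57, 6.05, 7.06, 7.67 and 8.02, lowest in replicate 2 and highest in replicate 5. Npas2 read 9.07, 8.46, 8.59, 8.79 and 9.35 and Cry1 8.36, 8.16, 7.94, 8.05 and 8.50, and both were highest in replicate 5, although replicate 2 was the middle value of Cry1. Bmal1, below the median gene, read 5.71, 4.76, 4.87, 5.31 and 5.77, with replicates 2 and 3 lowest. Clock itself varied little, at 8.13 ± 0.18. The labels give no hour at which the hearts were taken, and its part in these differences was not tested.

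Fasting and glucocorticoid genes formed another pattern. Angptl4, which inhibits lipoprotein lipase and responds to fatty acids, read 8.17, 9.42, 6.42, 8.98 and 8.45. Replicate 3 was lowest, and replicates 2 and 4 were highest, with a 7.98-fold range. Pdk4 read 10.24, 11.18, 9.87, 11.19 and 10.57 and Fkbp5, a glucocorticoid-induced co-chaperone, 8.06, 9.00, 7.44, 8.69 and 8.47, both lowest in replicate 3 and high in replicates 2 and 4. Acot1, a thioesterase below the median gene that was added after its values were seen, had the same lowest heart, with 4.83, 6.76, 4.21, 5.64 and 5.50. Ucp3, a mitochondrial carrier of muscle, read 6.67, 6.30, 5.60, 7.13 and 7.28, lowest in replicate 3 but highest in replicate 5.

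Other members of that list differed in order. G0s2, an inhibitor of adipose triglyceride lipase, read 9.83, 8.55, 9.18, 9.07 and 9.83, lowest where Angptl4 was highest. The metallothionein Mt2A read 9.40, 9.12, 9.39, 9.82 and 8.28, with replicate 5 lowest, and Sult1a1, a sulfotransferase, read 9.12, 9.97, 8.54, 9.31 and 8.71, with replicate 2 highest. Sgk1, a glucocorticoid-induced kinase, varied little at 10.44 ± 0.092. Genes of fatty acid uptake showed part of the pattern. Cd36, the fatty acid translocase, read 10.59, 11.01, 10.19, 10.52 and 10.22 and Gpihbp1, which holds Lpl on the capillary wall, read 9.67, 10.34, 8.83, 9.50 and 8.88, both highest in replicate 2, although Gpihbp1 was picked after its values were seen. Lpl, by comparison, stayed within 11.71 to 11.87.

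**Figure D4:**
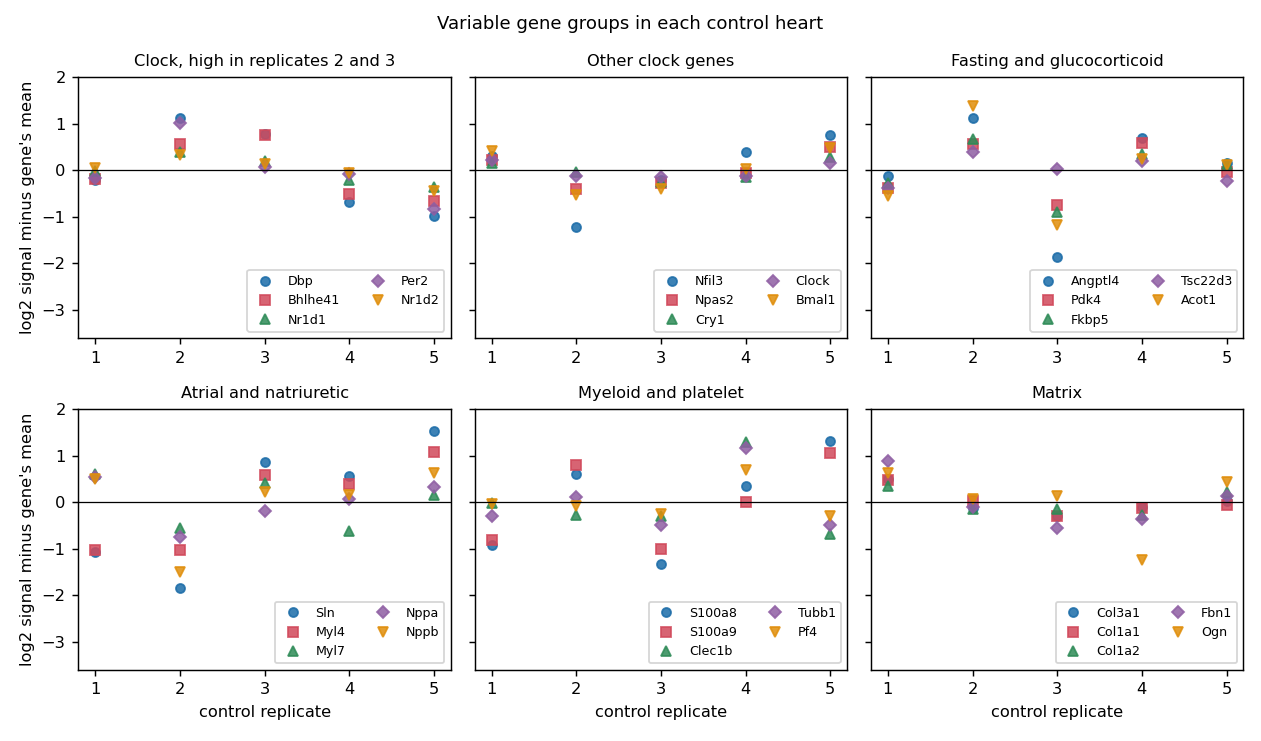
Log2 signal minus the mean of each gene (vertical axis) in control replicates 1 to 5 (horizontal axis) for 6 groups of variable genes, with 1 symbol per gene. Clock genes of the first panel are high in replicates 2 and 3 and low in replicate 5, Angptl4, Pdk4, Fkbp5 and Acot1 are low in replicate 3, Sln and Myl4 are low in replicates 1 and 2, Nppb is low in replicate 2, and platelet genes are high in replicate 4.

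Natriuretic peptides and atrial genes varied in different orders. Nppb, the B-type natriuretic peptide released on stretch, read 10.96, 8.97, 10.68, 10.61 and 11.10. Replicate 2 was low, 4.36-fold below the highest heart, and without it the SD was 0.23 in place of 0.86. Nppa, the atrial peptide, read 10.51, 9.22, 9.77, 10.03 and 10.29, also lowest in replicate 2. Myh7, another gene of cardiac load, was lowest in replicate 1.

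Sarcolipin (Sln), an atrial inhibitor of the calcium pump, read 5.75, 4.98, 7.68, 7.39 and 8.34. Replicates 1 and 2 were low and the other 3 were high, with a 10.3-fold range. Myl4, the atrial essential light chain, read 5.85, 5.86, 7.45, 7.26 and 7.96 and had the same 2 low hearts. Myl7 read 9.54, 8.39, 9.35, 8.33 and 9.09, lowest in replicates 2 and 4, and Tbx5, a factor of atria and left ventricle, 9.45, 9.51, 9.89, 9.43 and 9.60. Of the 5 atrial markers at or above the median gene 4 were in the top 10% by SD. The whole list held 0.0425 to 0.0740% of the summed signal, against 0.106 to 0.118% for the ventricular markers, of which none was in the top 10%. How much atrial tissue each sample held was not tested.

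Genes of blood cells differed from heart to heart. The neutrophil calprotectin subunits S100a8 and S100a9 read 8.15, 9.69, 7.74, 9.41 and 10.39 and 7.64, 9.25, 7.44, 8.46 and 9.50, both highest in replicate 5 and lowest in replicate 3. Platelet genes, listed after their values were seen, were highest in replicate 4. Clec1b, a platelet receptor, read 8.76, 8.49, 8.47, 10.08 and 8.08, Tubb1, the platelet tubulin, 8.68, 9.09, 8.50, 10.14 and 8.50, and Pf4, platelet factor 4, 10.47, 10.42, 10.25, 11.21 and 10.22. Gp9, Itga2b and Ppbp, all below the median gene, were also highest in replicate 4. Hbb, in contrast, was within 11.56 to 11.98 in the 5 hearts, and Alas2, the erythroid heme enzyme, read 7.73, 8.67, 7.63, 8.15 and 8.23, highest in replicate 2.

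Macrophage markers as a group were steady, with 1 of 8 in the top 10% and a summed share of 0.0908 to 0.105%. Cd68 read 8.66 ± 0.10 and Csf1r, the receptor for macrophage growth factor, 8.55 ± 0.16. The B cell receptor Fcer2 read 6.79, 5.06, 7.68, 6.99 and 6.17, lowest in replicate 2, and the chemokine Cxcl13, which attracts B cells, 8.70, 7.46, 9.27, 8.80 and 8.07, with the same lowest and highest heart. RT1-Bb, a class II antigen chain, read 7.43, 7.47, 8.92, 7.58 and 7.87, with replicate 3 over 1 unit above every other heart. Cxcl13 and RT1-Bb were picked after their values were seen.

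Interferon response genes varied by moderate amounts. Ifi44 read 7.46, 7.57, 8.33, 7.23 and 9.01, highest in replicate 5 and next in replicate 3. Irf7, the interferon regulatory factor, read 10.44, 10.51, 10.77, 10.24 and 10.84 with the same pair on top, and Gbp4, a guanylate-binding protein, 7.19, 6.35, 7.72, 6.29 and 7.70, where replicates 3 and 5 were also high and which was picked after its values were seen. Mx1, an antiviral GTPase, read 7.88, 7.46, 7.57, 6.83 and 7.84 and Oas1a 6.77, 7.24, 6.64, 6.63 and 6.13, in other orders, and Rsad2 was steady at 8.85 ± 0.16.

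Several matrix genes were highest in replicate 1. Col3a1 read 11.07, 10.44, 10.28, 10.48 and 10.60 and Col1a1 10.36, 9.92, 9.59, 9.76 and 9.84, the fibrillar collagens, and Fbn1, of microfibrils, 9.30, 8.31, 7.85, 8.05 and 8.55. Timp1, an inhibitor of matrix proteases, read 8.85, 7.87, 7.22, 8.01 and 7.64 and was also highest there. The summed share of the 45 measured matrix genes was 0.972% in replicate 1 and 0.798 to 0.883% in the others. The fibroblast markers were at 0.263% in replicate 1 and 0.211 to 0.242% in the others, but they include Col1a1 and Col3a1 and are no independent check. Smooth muscle markers were also highest in replicate 1, at 0.0285% and 0.0190 to 0.0246%, with the other hearts in another order. The part of either cell type was not tested. Ogn, the proteoglycan osteoglycin, read 10.88, 10.33, 10.39, 9.01 and 10.70, also highest in replicate 1 but with replicate 4 far below the rest. Mgp stayed at 11.82 ± 0.062.

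Some adipocyte genes below the median gene had a very wide spread. Adipoq, the hormone of fat cells, read 2.85, -1.81, 7.96, 7.68 and 3.31, high in replicates 3 and 4 only. Plin1, a coat protein of fat droplets, read -1.77, 1.03, 5.23, 5.56 and -1.57 and Cidec 1.03, -1.04, 3.32, 4.97 and 1.35, with the same 2 hearts on top. These 3 of the 7 measured adipocyte markers were put together after their values were seen, and fold changes against values near the floor were not computed. Fabp4, which endothelium also makes, did not follow them and read 11.62, 11.87, 11.37, 11.63 and 11.49. The share of the whole list went another way, highest in replicate 2 at 0.0906%, with 0.0718% in replicate 3 and 0.0836% in replicate 4, and Fabp4 made up 86.8 to 97.2% of it.

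The largest SD among the 7109 genes of at least median signal belonged to Notch4, an endothelial Notch receptor, with 8.11, 8.29, 4.73, 8.29 and 8.75. Replicate 3 alone was low, and without it the SD was 0.27 in place of 1.64, while the other 2 probe sets of Notch4 read 0.09 and 2.86, too dim to compare. The 7 measured endothelial markers together held 0.166% of the summed signal in replicate 3, and 0.154 to 0.178% over the 5 hearts. The part of endothelial content in the Notch4 value was not tested. Sv2b, a synaptic vesicle protein, read 10.45, 10.58, 7.32, 8.99 and 9.42, and Cyp2e1, an ethanol-oxidizing cytochrome, 5.83, 8.79, 7.47, 8.83 and 7.84. Sv2b was lowest in replicate 3 and Cyp2e1 in replicate 1. Pik3c2g, a lipid kinase, read 8.58, 8.38, 7.04, 8.04 and 5.57 and Reg3b, a secreted lectin, 8.90, 6.72, 7.07, 8.97 and 6.73.

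Some of the other variable genes bear on iron, thyroid hormone and calcium. Tfrc, which takes up transferrin iron, read 10.12, 7.97, 9.62, 9.12 and 8.80, highest in replicate 1 and lowest in replicate 2. Crym, which binds thyroid hormone, read 7.21, 8.26, 9.06, 9.04 and 8.19 and Casq1, the skeletal calsequestrin, 6.28, 5.96, 8.13, 6.36 and 7.13. Ankrd23, a titin-associated protein, read 5.61, 5.78, 7.36, 6.91 and 7.67, low in replicates 1 and 2 and highest in replicate 5, as were Sln and Myl4. Cryl1, a crystallin-related dehydrogenase, was low in replicates 1 and 4 and high in the rest, with 9.06, 10.65, 10.65, 9.05 and 11.01. Leaving out 1 heart at a time moved the SD of 19 of the 40 most variable genes by over 1.5 times, so many of these SDs rest on 1 heart. Among the 50 most variable genes, replicate 3 was highest in 16 and lowest in 12, replicate 2 was lowest in 16, and replicate 5 was highest in 13 and lowest in 3. Replicate 2 was farthest from the median of the 5 hearts in 14 genes, replicates 3 and 4 in 12 each.

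Other probe sets gave little check. Of the 50 most variable genes 13 had a further probe set, but only 2 of these reached the median gene and 1 was in the top 10% by SD.

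At the other end, the 50 least variable genes had SDs of 0.0089 to 0.030, and their median signal was 10.35. Pold2, a subunit of DNA polymerase delta, had the smallest SD, with 6.97, 6.99, 6.98, 6.99 and 6.97. Mpc2, of the mitochondrial pyruvate carrier, read 11.60 ± 0.012, Dnajb6, a chaperone, 11.17 ± 0.013, and Ndufb3, of complex I, 11.83 ± 0.016. Vegfb, a growth factor linked to fatty acid uptake, read 10.85 ± 0.025. Oxidative phosphorylation gave 6 of the 50, or 12%, where 1.03% of all 7109 genes are on that list. SD was smaller in brighter genes, and the median signal of that list was 11.43. The share over all genes is therefore not a background of like signal. The 50 genes were chosen as the lowest of many SDs over 5 samples. Their median SD was 0.153 in Met-fed and 0.0939 in L-NAME-fed hearts, near the medians of all 7109 genes in Met-fed (0.170) and below that in L-NAME-fed hearts (0.133).

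Genes that varied most between control hearts also varied in the treated groups, which the ranking did not use. Of the 50 genes, 43 were in the top 10% by SD among the 4 Met-fed hearts and 46 among the 4 L-NAME-fed hearts, where 10% of genes are. The filter on signal used the control means, and 3 of the 50 lay below the median gene in Met-fed and 15 in L-NAME-fed hearts. With these left out, by a setting added after the data were seen, 41 of 47 and 32 of 35 were in the top 10%. With no filter on dim genes in the choice of the 50, the counts were 37 and 34. The median SD of the 50 was 0.80 in controls, 0.76 in Met-fed and 0.53 in L-NAME-fed hearts, against 0.198 and 0.158 for genes of like signal in the treated groups. Sln read 6.50, 5.69, 5.18 and 10.71 in the Met-fed hearts and 4.42, 8.91, 4.26 and 8.19 in the L-NAME-fed hearts. Myl4 read 6.81, 5.60, 4.96 and 9.86 and 5.68, 9.35, 6.17 and 8.81, high in the same hearts. Angptl4 had an SD of 2.79 in Met-fed and 1.42 in L-NAME-fed hearts, and Dbp 0.89 and 0.83. Notch4 was an exception, with 0.45 and 0.087. Across the 7109 genes, SDs in controls correlated with those in Met-fed and in L-NAME-fed hearts at a Spearman rho of 0.40 each, a description across genes.

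**Figure D5:**
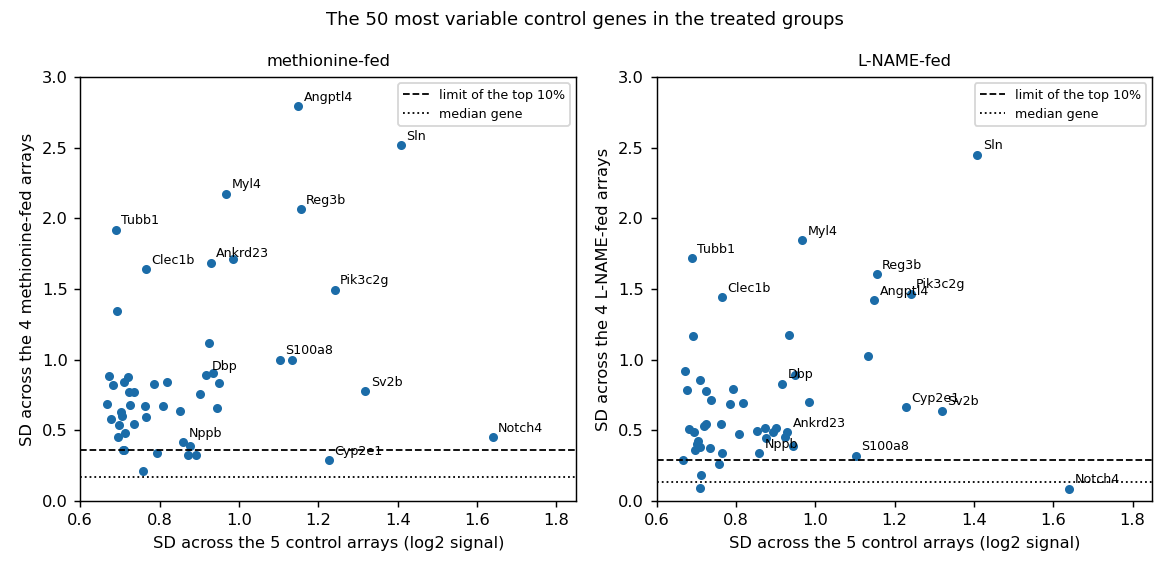
SD of log2 signal across the 4 Met-fed hearts (left, vertical axis) and the 4 L-NAME-fed hearts (right) against the SD across the 5 control hearts (horizontal axis) for the 50 most variable control genes. Most points lie above the dashed limit of the top 10%, 43 of 50 on the left and 46 of 50 on the right, whereas Notch4 lies near or below the dotted median on the right and Cyp2e1 below the dashed line on the left.

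Set against the treated groups by limma, none of the 50 brightest and none of the 50 most variable control genes passed in Met-fed hearts, where 0.0% of 31042 probe sets passed (3319 had an unadjusted p under 0.05) and the smallest adjusted p was 0.130. The methods' t-test also gave 0 after adjustment. In L-NAME-fed hearts 45.7% of probe sets passed, 28.7% higher and 17.0% lower. Those were 8908 higher and 5275 lower, which became 6827 and 6797 after quantile normalization and 4952 and 9232 with arrays centred on their medians. All 50 of the brightest genes passed there as lower, with a median change of -0.61, while the median of all probe sets was 0.22. After quantile normalization 19 of the 50 were lower and 5 higher, with a median of -0.090. With arrays centred on their medians all 50 were lower, with a median of -1.04. The calls and sizes for bright genes thus depended on the scaling. These 50 genes were also chosen for a high mean in the control arrays that enter this test, which favours lower values elsewhere. The part of this choice was not tested. Both array measures given above for the leads move with this comparison too, and their part was not tested. Of the 50 most variable genes, 11 passed, 2 higher and 9 lower, beside the background of 45.7%. They were chosen for a large SD in the control arrays that enter this test, so nothing is read from that count.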

How the data were processed

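Total RNA of the left ventricle was hybridised to Affymetrix Rat Genome 230 2.0 arrays. The deposited values are linear intensity from MAS5, of which the labels give no version. After trimming 2% at each end the mean was about 150 on every array. No further normalization was applied, and log2 was taken with no offset. Of 31099 probe sets 57 were array controls and were dropped. Of the remaining 31042, 20826 had 1 gene symbol, 436 several and 9780 none. Symbols came from the platform annotation and were updated through Entrez IDs to RefSeq (GRCr8). The 14217 genes were ranked by mean and SD over the 5 control arrays, and SDs were ranked among the 7109 genes of at least median signal. The number of arrays limits the precision.

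Treated groups were compared with control by limma 3.58.1 in R 4.3.3, with 1 coefficient per group over 13 arrays, a variance trend and Benjamini-Hochberg adjustment at 0.05; this was tested on simulated data. Leads of paralogs were compared by exact permutation in Python 3.11.15. The members and lists were chosen with earlier results of these data known. Named genes were the 40 brightest, the 40 of largest SD, family members, up to 4 brightest and 4 of largest SD of each list, and up to 10 of smallest SD. Genes said to be picked, listed or put together after their values were seen lie outside this rule. The list members Bmal1, Clock, G0s2, Sult1a1, Cd4 and Csf1r, named beside genes of the rule, and the genes at the edge of a list or sharing a motif also lie outside it and were chosen after their values were seen. Alternatives were quantile normalization, median centring, offsets of 16 and 50, other filters, means over probe sets, other spread measures, other fits and each array left out. The study's methods give fewer control arrays than the 5 labelled ones used here. Exact 2-sided tests over 5 against 4 samples cannot go below 0.00794. A table of signal per probe set was the only file used.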

Additional observations from a re-analysis of the deposited data

Results flagged for a closer look

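In 9 of 138 values looked at across the 5 control hearts, 1 heart stood apart from the other 4 by more than 0.71 of the whole range. Chance gives about 1 in 20 for genes not chosen by their spread, and the share here was 6.52%. Some of these genes were named for a large or small SD, so that rate is not a like comparison.

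Replicate 3 was low for Notch4 (4.73, others 8.11 to 8.75), for Mb (11.98, others 12.12 to 12.14) and for Slc25a4 (11.61, others 11.82 to 11.83). The mean of the 50 brightest genes, to which Mb and Slc25a4 belong, was also lowest in replicate 3 (11.81, others 11.92 to 11.95). The part of that difference between arrays in the Mb and Slc25a4 values was not tested. Replicate 2 was low for Nppb (8.97, others 10.61 to 11.10). In replicate 4, Npy (11.05, others 9.92 to 10.16), Pf4 (11.21, others 10.22 to 10.47) and Dnajb6 (11.19, others 11.16 to 11.17) were high. Replicate 1 was high for Myl2 (12.06, others 11.89 to 11.94) and Tnnc1 (11.76, others 11.57 to 11.60).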

How the results depend on the processing

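The 50 brightest genes shared 48 to 49 genes with the list made without 1 control heart, 49 after quantile normalization and 34 with all probe sets of a gene averaged, where Tpm3 came to 5.46, Gja1 to 4.34 and Pdlim5 to 4.16. For paralogs, 47 to 48 families kept 1 brightest member in all remaining hearts, and the arithmetic mean changed no leader. With all probe sets of a gene averaged, 42 of 55 leaders were the same. Myh6 gave way to Myh1, Tpm3 to Tpm1, Pfkm to Pfkp, Pygm to Pygb and Slc2a4 to Slc2a1. Pdk2 gave way to Pdk1, Acsl1 to Acsl4, Gja1 to Gja4 and Ppard to Pparg. The other changes were Timp2 to Timp4, Got2 to Got1, Prkaa1 to Prkaa2 and Slc16a1 to Slc16a7. Under that setting the shares became 5.88% for oxidative phosphorylation, 3.02% for ribosomal proteins, 1.92% for the sarcomere, 1.55% for fatty acid oxidation, 1.25% for the citric acid cycle and 0.935% for matrix. Without 1 heart they ran from 4.46 to 4.52%, 2.25 to 2.30%, 2.09 to 2.12%, 1.37 to 1.41%, 1.16 to 1.18% and 0.826 to 0.870%. The 50 most variable genes depended most on the filter. They shared 0 genes with the list made with no filter on dim genes, whose 50 were all below the median gene, 13 with a stricter filter on signal, 22 with probe sets averaged, and 35 to 40 when 1 heart was left out. For averaged probe sets the cause was not tested. The counts in the top 10% by SD were 40 to 45 of 50 (Met-fed) and 37 to 45 (L-NAME-fed) without 1 array.

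Against control, Met-fed gave 0 probe sets, 1 with the replicate block and 0 to 1 without 1 array (1 without control replicate 1 or Met-fed replicate 1). L-NAME-fed gave 14183, 13149 with the replicate block and 12911 to 13932 without 1 array. The labels do not say whether samples of 1 number were paired. Their deviations correlated at -0.21 to 0.24, which cannot decide it, and control replicate 5 had no partner. Of the L-NAME-fed calls 8908 were higher and 5275 lower, after quantile normalization 6827 and 6797, and after median centring 4952 and 9232. Paralog leads past the threshold in L-NAME-fed hearts went from 21 to 0 with probe sets averaged, where 14 rather than the needed 18 were at the smallest p, and were 0 without any 1 array, a design too small to bear on stability. These settings were added after the data were seen. In Met-fed hearts the count was 0 throughout.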
